A study of Mus musculus with 5 samples.

Results

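Mitochondrial ribosomal protein genes were taken as the rows whose symbol is Mrpl or Mrps followed by a number and, in some, a letter from a to c, with a mean over the 5 libraries of at least 1 FPKM (fragments per kilobase of transcript, scaled to the size of the library). The rule found 78 genes among 33589 rows, of which 10820 had a mean of at least 1 FPKM. None of the 78 fell below that mean, so they are all members, 49 with an Mrpl symbol and 29 with an Mrps symbol. RNA was sequenced from liver of male mice aged 6 weeks that were fed a high-fat diet for 4 weeks. The 2 control libraries came from Hegfl/fl mice, which carry the floxed Heg1 gene and no Cre. The 3 knockout libraries came from Lyve1-Cre;Hegfl/fl mice, which carry the same floxed gene and a Cre recombinase driven by Lyve1, a gene of lymphatic and liver sinusoidal endothelium. The floxed gene and the diet are shared by both groups. Labels do not say that each library came from a separate animal, so the spread behind each p-value, that between libraries, may be technical. The series title speaks of hepatocytes and the labels of liver.

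The mitochondrial ribosome, or mitoribosome, translates the few messenger RNAs of the mitochondrial genome, which encode core subunits of the respiratory chain and of ATP synthase. All of its proteins are encoded in the nucleus, made in the cytosol and imported. Some descend from proteins of the bacterial ribosome, and others were added during the evolution of mitochondria. Liver is rich in mitochondria, and hepatocytes hold most of its RNA.

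Symbols do not always give the place of a protein in the assembled particle. Mrps30 and Mrps18a belong to the large subunit, and Mrps36 is now regarded as a component of the oxoglutarate dehydrogenase complex. Counted by assembled particle there were 51 large subunit genes and 26 small subunit genes, besides Mrps36. By origin, 46 had a bacterial counterpart and 31 were specific to mitochondria. Mrps18a and Mrps18b, although related to a bacterial protein, were counted among the latter. The genes lay on 17 chromosomes (positions from GENCODE M21, on GRCm38, which is mm10), with 11 on chromosome 11 and 8 on chromosome 17.

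Starts of members often lay close to that of a neighbour, and their promoters often held the letters of known regulators of nuclear genes for mitochondria. Neighbours on either side of the start were counted, and whether a promoter was shared was not tested. In 33 of 78 members (42.3%) the annotated start lay within 1000 bases of the start of a protein-coding gene on the opposite strand, against 1718 of 10061 tested protein-coding genes (17.1%). Their median distance was 128 bases. Mrpl46 and Mrps11 formed such a pair with each other. Other neighbours were Ndufs6 and Ndufb5, which encode subunits of respiratory complex I, for Mrpl36 and Mrpl47, and Sars2, the mitochondrial seryl-tRNA synthetase, for Mrps12.

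RefSeq promoter windows on GRCm38.p6, 250 bases before to 50 after each start, were found for 69 of the 78 members. They were searched on both strands for 3 motifs. The core motif of NRF1 was searched in its 10-letter form, ETS factors such as GABPA as CCGGAAG, and YY1 as AAGATGGC, and an ETS match can run into a YY1 match through the shared letters AAG. NRF1 letters were found for 13 members (18.8%), against 11.9% of the 8501 tested genes with a window. ETS letters were found for 26 members (37.7% against 21.1%), and YY1 letters for 12 (17.4% against 5.69%). At least 1 of the 3 was present for 43 members (62.3% against 33.8%). Median GC content was 58.7% in windows of members and 60.3% in those of all tested genes. A match is a description of letters and not a site of binding, and no test was made.

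The 250 bases before the start are shown for the members with the smallest unadjusted p in each direction, Mrpl58 and Mrps26, for Mrpl28, which holds none of the 3 motifs in these bases, and for Mrpl12, among the most abundant members. Capitals mark motif matches. The windows are chr11:115403502-115403751, chr2:130563507-130563756, chr17:26123253-26123502 and chr11:120484387-120484636, all on the plus strand.
Mrpl58: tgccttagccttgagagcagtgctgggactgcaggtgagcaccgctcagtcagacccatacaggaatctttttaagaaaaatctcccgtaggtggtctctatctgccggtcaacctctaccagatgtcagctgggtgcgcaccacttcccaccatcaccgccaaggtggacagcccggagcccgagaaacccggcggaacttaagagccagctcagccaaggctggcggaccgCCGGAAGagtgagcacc
Mrps26: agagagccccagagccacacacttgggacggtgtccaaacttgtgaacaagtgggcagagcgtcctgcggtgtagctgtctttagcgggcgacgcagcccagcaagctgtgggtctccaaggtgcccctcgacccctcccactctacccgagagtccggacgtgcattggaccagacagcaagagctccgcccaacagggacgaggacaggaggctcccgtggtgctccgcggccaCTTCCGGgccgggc
Mrpl28: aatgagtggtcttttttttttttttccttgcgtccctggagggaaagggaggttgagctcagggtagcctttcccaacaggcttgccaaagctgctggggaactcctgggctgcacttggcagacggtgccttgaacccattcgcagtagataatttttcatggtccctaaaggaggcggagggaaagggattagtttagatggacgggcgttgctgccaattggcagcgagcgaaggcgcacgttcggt
Mrpl12: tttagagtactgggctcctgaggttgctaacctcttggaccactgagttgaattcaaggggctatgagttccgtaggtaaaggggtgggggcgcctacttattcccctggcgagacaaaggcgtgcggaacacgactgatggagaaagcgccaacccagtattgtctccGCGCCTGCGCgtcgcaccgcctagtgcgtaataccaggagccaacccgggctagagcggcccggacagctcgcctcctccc
Mrpl58 and Mrps26, which lay on opposite sides of 0 in the comparison of genotypes below, thus both carried an ETS match close to the start, at -17 in Mrpl58 and at -14 in Mrps26, counted from the start site to the first base of the match. Mrpl12 carried an NRF1 match at -81.

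Heg1 itself had 0.48 and 0.35 FPKM in controls, against 0.45, 0.43 and 0.50 in knockouts. These values lie under 1 FPKM, their groups overlap, and they come from whole liver, whereas the Cre is driven by an endothelial gene, so they do not check the labels. Summed FPKM per library lay between 797692 and 820498, and sequencing depth is unknown. The 6 hepatocyte markers summed to 82765 and 77087 FPKM in controls, against 67359, 65670 and 81335 in knockouts, and none of the listed markers was at 0 in any library. Lymphocyte markers summed to between 1.16 and 3.65 FPKM. The 6 sinusoidal endothelial markers summed to between 111 and 155 FPKM. Cholangiocyte markers, 3 of which were tested, summed to 29.7 and 40.6 FPKM in controls, against 72.4, 51.2 and 55.3 in knockouts, with no overlap. That sum mostly reflects 1 gene, as the means of the 3 were 45.8, 1.46 and 1.12 FPKM. Taken singly, groups did not overlap for 1 of the 3, with knockouts higher, as for 18.9% of all tested genes. Kupffer cell markers summed to 130 and 223 FPKM in controls, against 177, 215 and 227 in knockouts, and 6 of 6 had log2 fold changes above 0 (median 0.23). Stellate cell markers summed to between 96.9 and 147 FPKM, and 6 of 6 were below 0 (median -0.059). The part of these cell types in the results on members was not tested. For erythrocyte markers the sum was 136 and 146 FPKM in controls, against 1329, 244 and 141 in knockouts, so knockout 1 stood apart in this respect.

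Members were expressed at moderate levels that differed widely between genes. FPKM are scaled by transcript length, so levels can be compared between genes. The median member had 29.2 FPKM, with quartiles of 17.8 and 44.2, against a median of 8.36 FPKM over all tested genes. Mean FPKM was under 10 for 5 members, between 10 and 50 for 58 and at least 50 for 15. Levels spanned 48.8-fold from Mrpl19 to Mrpl52. Members with longer transcripts had lower FPKM (Spearman's rho across the 78 genes -0.52, a description, since genes are not replicates). Length here was that of the longest annotated transcript, which may differ from the length behind the FPKM. Since FPKM divide by length, part of a negative rho may be built in.

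**Figure D1:**
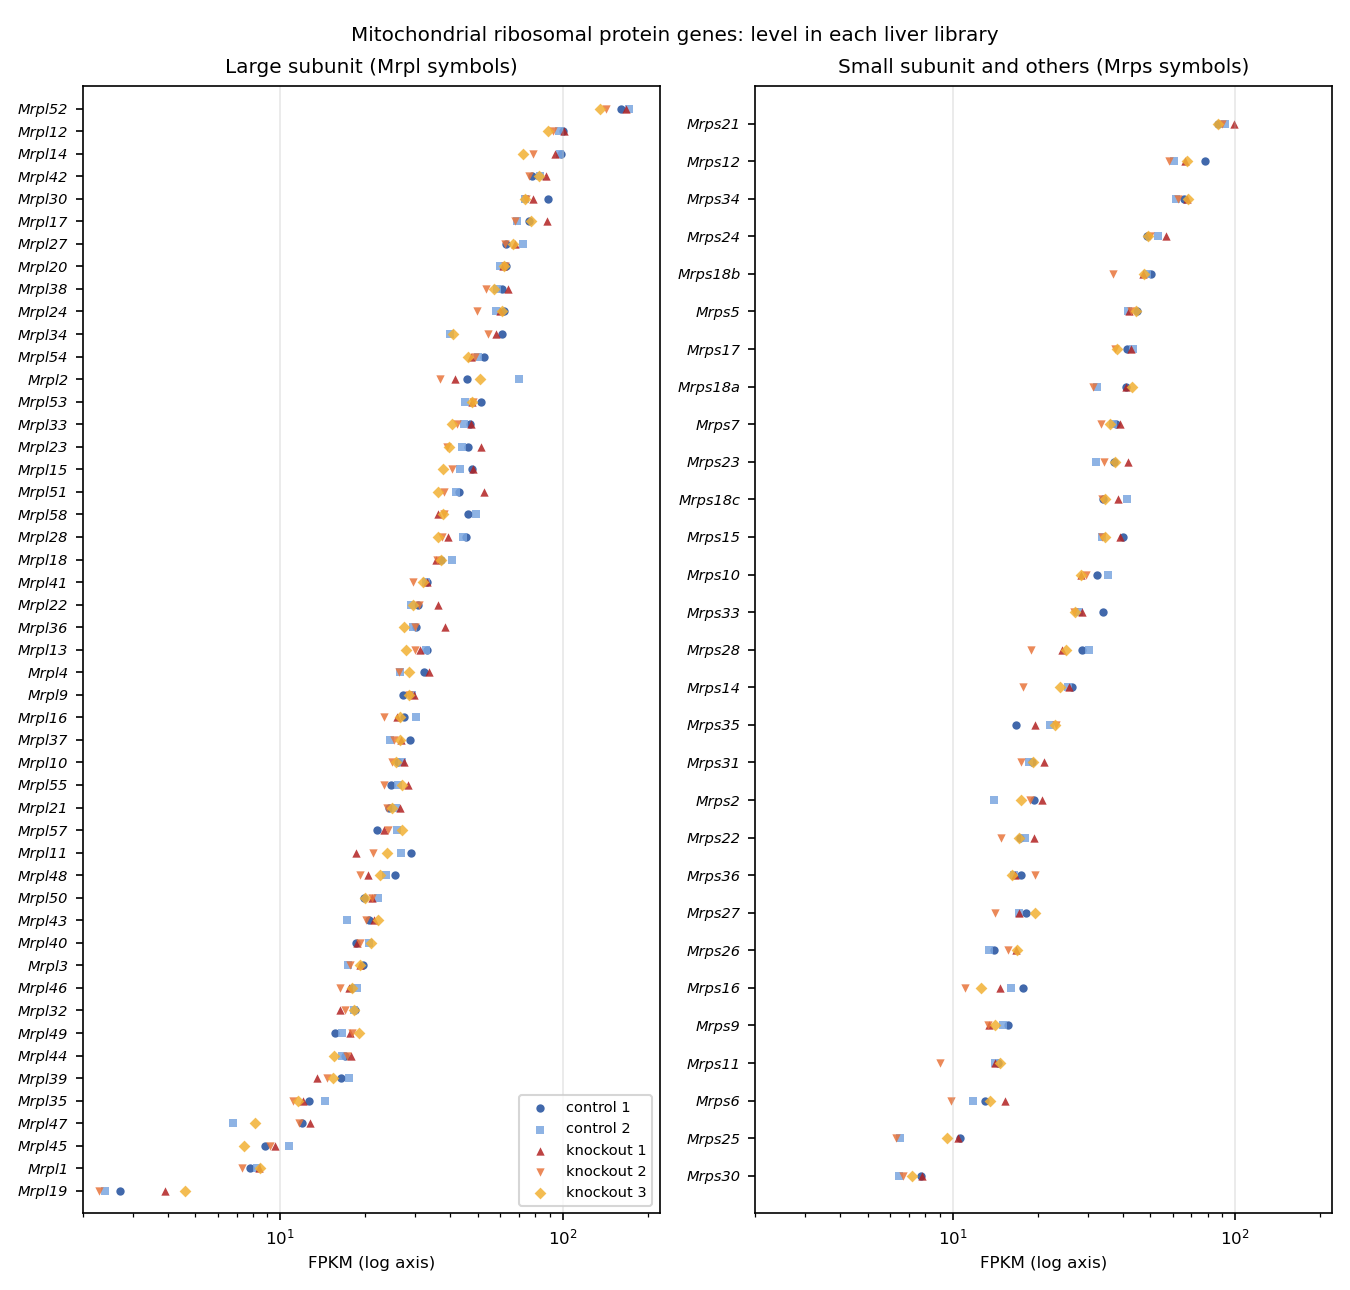
FPKM of the 78 members in each of the 5 liver libraries on a log axis, 1 row per gene ordered by mean level, Mrpl symbols on the left and Mrps symbols on the right. Mrpl52 stands highest and Mrpl19 lowest, and the 5 symbols of most rows lie close together compared with the distance between genes.

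At the top stood Mrpl52, a mitochondria-specific large subunit protein, with 160 and 171 FPKM in controls, against 167, 142 and 135 in knockouts. Mrpl12, which forms the stalk that recruits translation factors, had 99.8 and 96.8 FPKM in controls, against 101, 92.5 and 88.4 in knockouts. Its groups overlapped, and the log2 fold change was -0.07 (SE 0.098). Mrpl10, the stalk protein that anchors Mrpl12, was less abundant, at 26.2 and 27.0 FPKM in controls, against 27.4, 24.9 and 25.7 in knockouts. Mrps21, the counterpart of bacterial bS21, had a mean of 91.1 FPKM, Mrpl14 of the subunit interface 88.2, Mrpl42 81.3 and Mrpl30 77.6 FPKM. At the bottom were Mrpl19 (mean 3.18 FPKM), Mrps30 (7.16), Mrpl1, which builds the mobile stalk beside the exit site (8.05), and Mrps25 (8.66).

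Large subunit genes had a median of 31.0 FPKM and small subunit genes of 27.2 FPKM. Genes with a bacterial counterpart had a median of 31.2 FPKM, and mitochondria-specific genes of 22.2 FPKM. Summed FPKM of the large subunit divided by that of the small subunit was 2.35 and 2.39 in controls and 2.33, 2.39 and 2.25 in knockouts. Between libraries this ratio therefore varied little, and its groups overlapped.

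In the comparison of genotypes, no member passed the test. Most members differed little between the groups, 16 had knockout values below both controls, and only Mrpl49 and Mrps26 had knockout values above both. Each log2 fold change given here is the mean of log2(FPKM + 1) in knockouts minus that in controls, tested with limma across the 10820 genes and adjusted by the Benjamini-Hochberg method. Over all genes 0 passed an adjusted p of 0.05 (0.0%), with 572 genes higher (5.29%) and 185 lower (1.71%) at an unadjusted p below 0.05. That split became 310 higher and 362 lower with median-of-ratios scaling, 279 and 321 with quantile normalization, and 294 and 277 with transcript length correction. Adjusted p of the members lay between 0.696 and 0.998. At an unadjusted p below 0.05 there were 5 members lower (6.41%) and 1 higher (1.28%).

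The log2 fold change of the 78 members lay between -0.40 and 0.34, and was within 0.1 of 0 for 45 of them and within 0.2 for 63. Its 95% interval had a median half-width of 0.27, so changes of that size could not be told from 0 for a typical member. In total 47 members (60.3%) had a value below 0, against 35.8% of all tested genes, and the median was -0.037 against 0.061 over all genes. Groups did not overlap, with knockouts lower, for 16 members (20.5%), against 6.38% of all genes. They did not overlap with knockouts higher for 2 members (2.56%), against 18.9%. These counts depended on scaling. With median-of-ratios scaling, which centres all genes at 0.0026, 67 members were lower and their median was -0.104, while 50.7% of all genes were higher. Under this scaling groups did not overlap, with knockouts lower, for 25 of the 78 members, against 1312 of 10820 genes.

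**Figure D2:**
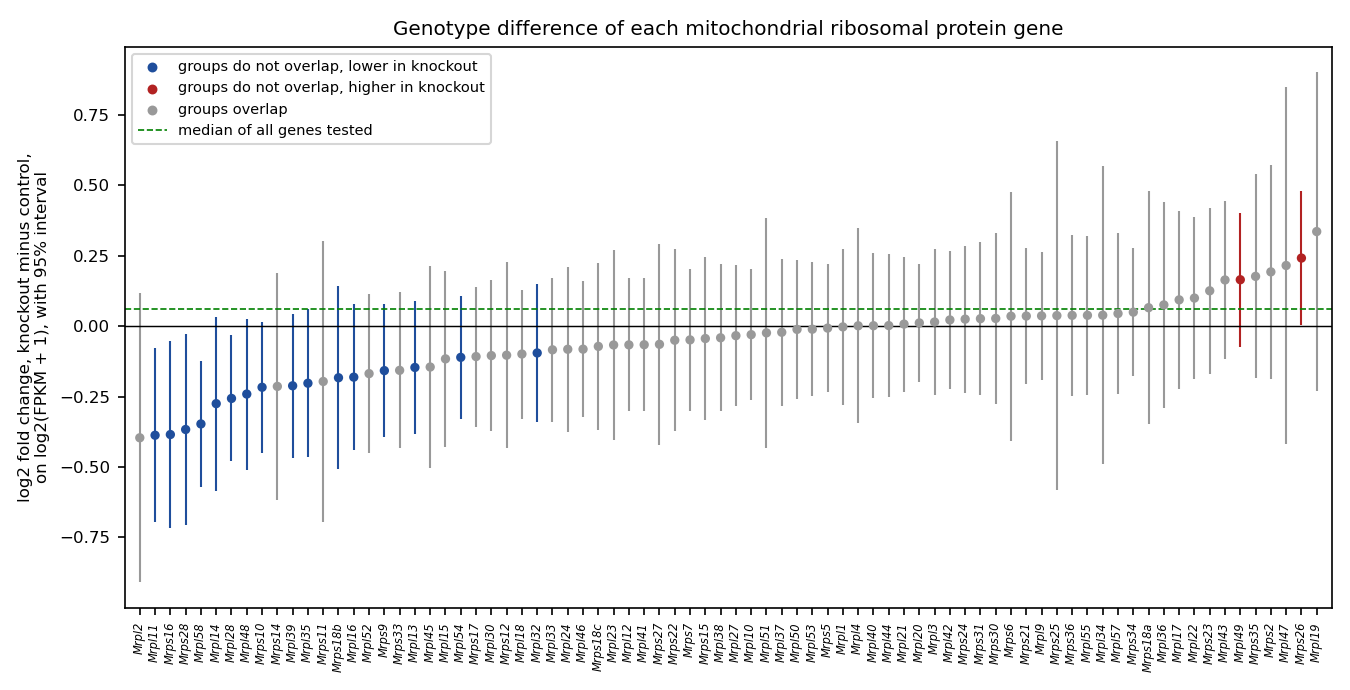
Log2 fold change of each of the 78 members (knockout minus control on log2(FPKM + 1)) with its 95% interval, ordered by size, blue or red where the groups do not overlap. The 16 blue genes lie below 0 and the 2 red genes above 0, among others whose groups overlap, and the dashed line marks the median of all genes tested at 0.061.

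The size of the tilt towards lower values depended on single libraries, knockout 2 and control 1 among them. The members' median minus that of all genes was -0.098 with all libraries. When 1 library was left out it ranged from -0.152 (without knockout 1) to -0.069 (without knockout 2). Leaving out control 1 shrank it nearly as far, to -0.077. It was -0.084 without knockout 3 and -0.148 without control 2. With transcript length correction it was -0.044. Of the 78 members, 36 (46.2%) had their lowest FPKM in knockout 2, against 20.2% of all tested genes, and 2 had their highest there. After median-of-ratios scaling 44.9% of members were lowest in knockout 2, against 22.1% of genes, and 32.1% in knockout 3, against 18.9%. Without knockout 2 the members' median log2 fold change was 0.00048 and 40 members were higher, against a median of 0.069 over all genes. The 16 members with lower knockouts kept groups that did not overlap, as they must when a library is left out, while the share over all genes was then 10.3%. Without knockout 1 the median was -0.090 and 18 members were higher. The count of 16 was 25 without control 1, 30 without control 2 and 30 without knockout 1, where the shares over all genes were 19.5%, 15.3% and 12.1%.

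Summed over the 78 members, FPKM were 2903 and 2837 in controls and 2917, 2597 and 2706 in knockouts. Knockout 1 was thus the highest of the 5 libraries and knockout 2 the lowest, and the groups overlapped. Knockout 2 also had the lowest sums of hepatocyte and sinusoidal endothelial markers. Its hepatocyte sum of 65670 FPKM lay close to the 67359 of knockout 1. By median deviation from each marker's mean over the 5 libraries (log2), control 2 was lowest for hepatocyte markers (-0.129, against -0.060 in knockout 2). For endothelial markers knockout 2 was lowest (-0.204). The part of these markers in the result was not tested. The sum over members made up between 0.326% and 0.357% of all FPKM. For members, the median deviation from each gene's mean over the 5 libraries was 0.048 and 0.019 in controls and 0.058, -0.090 and -0.0042 in knockouts (log2). It was -0.108 in knockout 2 for small subunit genes and -0.073 for large subunit genes. In bulk liver, fewer cells of a type and less RNA per cell cannot be told apart.

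**Figure D3:**
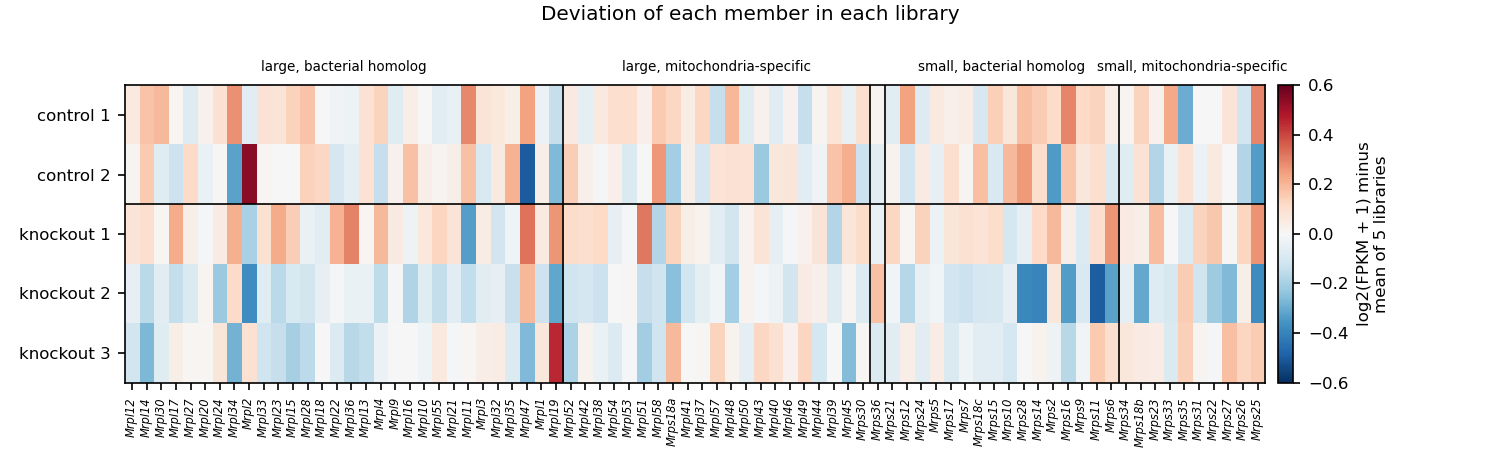
Deviation of log2(FPKM + 1) from the mean of the 5 libraries for each member (columns, grouped by subunit and origin, then by level) in each library (rows, controls above the line); red is higher and blue lower. The row of knockout 2 is mostly blue, where 36 of 78 members have their lowest value.

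Among large subunit genes, Mrpl58 had the smallest p of all members. It encodes a peptidyl-tRNA hydrolase built into the large subunit, known for releasing peptides from stalled mitoribosomes, and lies on chromosome 11 at 115403752 to 115412674. FPKM were 46.0 and 49.4 in controls and 36.3, 37.8 and 37.7 in knockouts. All 3 knockouts lay below both controls, with little spread among them. This amounts to -0.35 on the log2 scale (SE 0.093), and the 95% interval reached from -0.57 to -0.12. The limma p was 0.0084 before and 0.696 after adjustment. Over 13 alternatives it stayed between -0.41 and -0.30, with adjusted p between 0.457 and 0.914. Only 0.077% of its exon bases were shared with another gene.

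Mrpl11, the counterpart of bacterial uL11 at the base of the stalk (chromosome 19, 4962147 to 4966999), had 29.0 and 26.8 FPKM in controls, against 18.6, 21.2 and 23.8 in knockouts. Knockout 1 was the lowest library here, unlike for most members. The log2 fold change was -0.39 (SE 0.13, limma adjusted p = 0.700). Mrpl28, the counterpart of bL28 (chromosome 17, 26123500 to 26126613), had 45.5 and 44.4 FPKM in controls, against 39.2, 37.2 and 36.1 in knockouts. The difference was -0.26 on the log2 scale (SE 0.093, limma adjusted p = 0.700). Neither gene shared exon bases with another gene.

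Mrpl48, a mitochondria-specific protein, had 25.5 and 23.6 FPKM in controls, against 20.4, 19.1 and 22.5 in knockouts. Mrpl14 had 98.7 and 97.8 FPKM in controls, against 93.9, 78.2 and 72.5 in knockouts, so its difference lay mainly in knockouts 2 and 3. Their log2 fold changes were -0.24 (SE 0.11) and -0.27 (SE 0.13), with limma adjusted p of 0.718 for both. In the other direction Mrpl49, a mitochondria-specific protein whose start lies 59 bases from that of Fau, had 15.7 and 16.6 FPKM in controls, against 17.63, 17.93 and 19 in knockouts. Its groups did not overlap, and the log2 fold change was 0.17 (SE 0.099, limma adjusted p = 0.747). Fau, which encodes a ribosomal protein of the cytosol and no member, had 413 and 379 FPKM in controls, against 394, 346 and 335 in knockouts.

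Mrpl43 had a mean of 18.9 ± 2.40 FPKM in controls (SD, n = 2) and 21.2 ± 1.03 FPKM in knockouts (SD, n = 3), with overlapping groups. Mrpl22, whose bacterial counterpart lines the exit tunnel, had 29.9 ± 1.17 and 32.3 ± 3.56 FPKM. Mrpl19 had the highest log2 fold change of all members, 0.34 (SE 0.24), at 2.71 and 2.40 FPKM in controls, against 3.90, 2.29 and 4.59 in knockouts. Knockout 2 was the lowest library for Mrpl19, the groups overlapped, and 39.2% of its exon bases are shared with Gcfc2 on the opposite strand.

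For the small subunit, Mrps16 and Mrps28 led the lower members. Mrps16, the counterpart of bS16 (chromosome 14, 20389304 to 20393634, minus strand), had 17.7 and 16.1 FPKM in controls, against 14.7, 11.1 and 12.6 in knockouts. The difference was -0.38 on the log2 scale (SE 0.14, limma adjusted p = 0.700). Mrps28, the counterpart of bS1 (chromosome 3, 8802146 to 8923918, minus strand), had 28.7 and 30.3 FPKM in controls, against 24.28, 18.98 and 25.12 in knockouts. The difference was -0.37 on the log2 scale (SE 0.14, limma adjusted p = 0.700). For both genes knockout 2 was the lowest library. Leaving it out gave -0.29 for Mrps16 and -0.25 for Mrps28.

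Mrps10, the counterpart of uS10, had 32.3 and 35.4 FPKM in controls, against 28.6, 29.8 and 28.6 in knockouts. The difference was -0.22 on the log2 scale (SE 0.096, limma adjusted p = 0.708). Mrps26, specific to mitochondria (chromosome 2, 130563742 to 130568695), was the one member with an unadjusted p below 0.05 and higher values in knockouts. It had 14.04 and 13.44 FPKM in controls, against 16.8, 15.7 and 16.8 in knockouts. The difference of 0.24 on the log2 scale had a SE of 0.099 and a 95% interval from 0.003 to 0.48 (limma adjusted p = 0.700).

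Mrps2 (16.7 ± 3.85 and 19 ± 1.58 FPKM), Mrps35 (19.4 ± 3.85 and 22.0 ± 2.06 FPKM) and Mrps23 (34.6 ± 3.53 and 37.9 ± 3.60 FPKM) had higher means in knockouts and overlapping groups. Mrps12, the counterpart of uS12 at the decoding centre, had 78.0 and 60.7 FPKM in controls, against 66.3, 58.4 and 67.7 in knockouts. Both the highest value and the second lowest of Mrps12 were thus in controls. Mrps36 had 17.4 and 16.4 FPKM in controls, against 16.6, 19.6 and 16.2 in knockouts. Mrps35 and Mrps36 were the 2 members with their highest value in knockout 2.

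The 3 paralogs of bacterial bS18 occupy different places, Mrps18c that of bS18 itself, Mrps18b another site of the small subunit and Mrps18a a site of the large subunit. Their mean FPKM were alike, 36.5 for Mrps18c, 46.1 for Mrps18b and 37.8 for Mrps18a. Their patterns over libraries differed. Mrps18a had 40.9 and 32.4 FPKM in controls, against 41.2, 31.4 and 43.1 in knockouts, so control 2 and knockout 2 formed a lower pair. Mrps18b had 50.4 and 48.7 FPKM in controls, against 47.0, 36.9 and 47.5 in knockouts, with knockout 2 alone low, although its groups did not overlap. Mrps18c had 33.9 and 41.4 FPKM in controls, against 38.6, 33.8 and 34.7 in knockouts, with control 2 highest. In Mrps18b 59.1% of exon bases are shared with Gm16279 on the opposite strand.

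Several members varied widely between libraries without following genotype. The ratio of the highest to the lowest library was over 1.5 for 10 members. Groups did not overlap for Mrps28, Mrpl11 and Mrps16 among these, and overlapped for the others. Mrps25, specific to mitochondria, stood at 10.6, 10.4 and 9.53 FPKM in control 1, knockout 1 and knockout 3, and at 6.5 and 6.28 FPKM in control 2 and knockout 2. The low and the high libraries thus cut across genotype, and 58.2% of the exon bases of Mrps25 are shared with Nr2c2 on the opposite strand. Another grouping of libraries appeared in Mrpl47 and Mrpl34, which, like Mrpl2 and Mrpl20 below, were chosen after their values were seen. Mrpl47, the counterpart of uL29, had 11.97, 12.76 and 11.62 FPKM in control 1, knockout 1 and knockout 2 and 6.78 and 8.14 FPKM in control 2 and knockout 3. Mrpl34, the counterpart of bL34, had 60.7, 58.2 and 54.3 FPKM in the same 3 libraries and 39.8 and 40.9 FPKM in the other two. Of the exon bases of Mrpl47, 18.1% are shared with Actl6a and Ndufb5 on the opposite strand, and Ndufb5 had between 108 and 141 FPKM.

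Mrpl2, a protein close to the peptidyl transferase centre, had the lowest log2 fold change of all members, -0.40 (SE 0.21, limma adjusted p = 0.730). Its FPKM were 45.6 and 69.8 in controls and 41.6, 36.6 and 51.0 in knockouts. Control 2 alone stood high, and the groups overlapped. At the other extreme Mrpl20, the counterpart of bL20, varied least, with 62.9 and 60.1 FPKM in controls, against 61.4, 62.6 and 62.1 in knockouts. The SD of log2(FPKM + 1) over the 5 libraries had a median of 0.127 over members and of 0.160 over all tested genes, whose levels were lower.

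**Figure D4:**
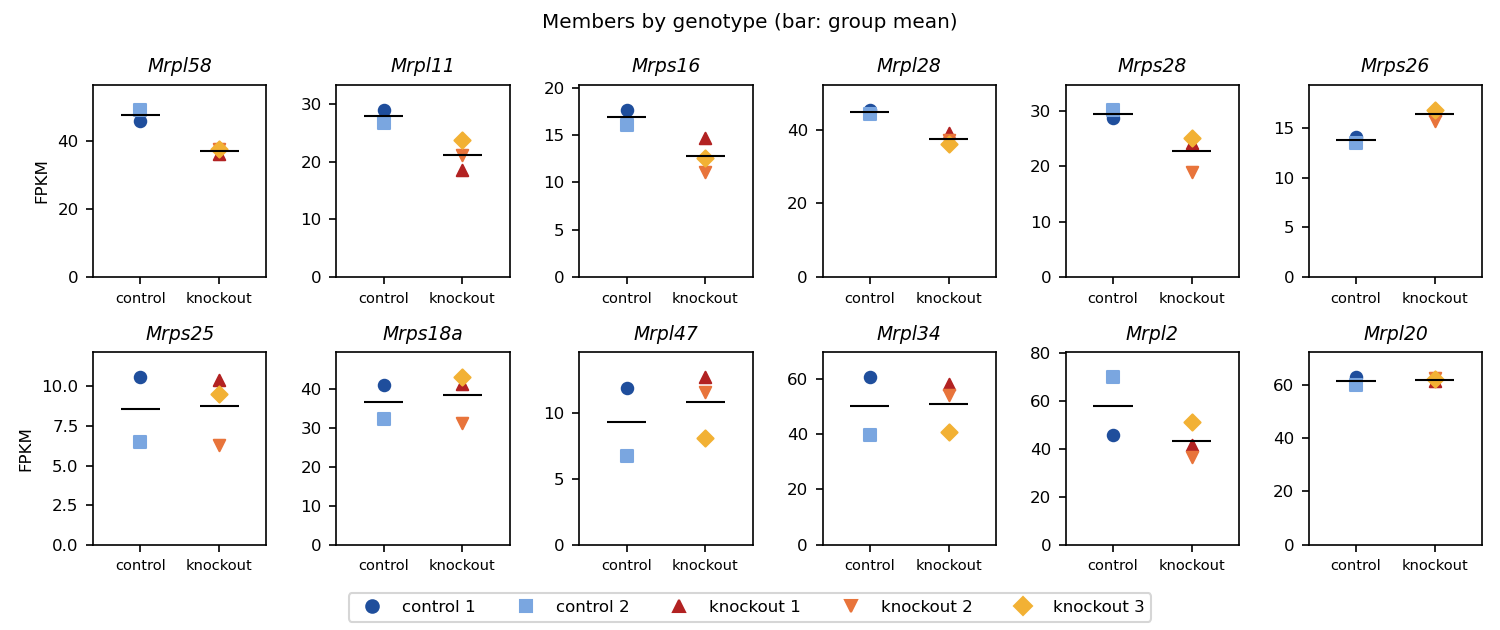
FPKM of 12 members by genotype, 1 symbol per library and a bar at each group mean, each axis starting at 0. The upper row shows 5 members with lower and 1 with higher knockout values without overlap, and the lower row shows members whose libraries split across genotype, with Mrpl20 as the least variable member.

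By origin, 30 of 46 genes with a bacterial counterpart and 17 of 31 mitochondria-specific genes had a log2 fold change below 0. Groups did not overlap for 11 lower and 0 higher genes with a bacterial counterpart, and for 5 lower and 2 higher mitochondria-specific genes. Those 5 include Mrps18b, which is counted as mitochondria-specific although it is a paralog of bS18. Medians were -0.066 and -0.011. By particle they were -0.030 for the large and -0.049 for the small subunit. Within the large subunit 18 of 30 genes with a bacterial counterpart and 13 of 21 mitochondria-specific genes were below 0. Within the small subunit these counts were 12 of 16 and 4 of 10. In counts, the contrast by origin thus lay in the small subunit. These differences between classes were not tested, and the percentages over all genes above apply to each.

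Other parts of mitochondrial translation were read from lists. The 5 mitoribosome proteins whose symbols the rule does not match had log2 fold changes below 0, with a median of -0.110. It was -0.177 with median-of-ratios scaling, -0.192 without knockout 1 and -0.049 without knockout 2. Without control 2 it was -0.072, and 2 of the 5 were then above 0, as they were without knockout 3. The replicate block gives the same fold changes as leaving out knockout 3. Chchd1, a small subunit protein, had 56.1 and 48.4 FPKM in controls, against 48.5, 37.0 and 46.2 in knockouts, and Gadd45gip1, of the large subunit, had 17.4 and 16.9 FPKM in controls, against 16.8, 14.3 and 15.4 in knockouts. For both, knockout 2 was lowest, as for many members.

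Assembly factors, which modify ribosomal RNA and guide assembly, had log2 fold changes above 0 in 16 of 23 tested genes, with a median of 0.068 beside 0.061 over all genes. With quantile normalization 9 of 23 were above 0 and the median turned to -0.018. It was 0.0092 with median-of-ratios scaling, 0.025 with length correction, 0.027 without knockout 1 and 0.044 without control 2. Fastkd2, an RNA-binding protein needed for the large subunit RNA, had 5.32 and 5.43 FPKM in controls, against 7.29, 7.05 and 6.12 in knockouts. Mtg1, a GTPase of large subunit assembly, had 14.4 and 16.1 FPKM in controls, against 13.1, 10.6 and 13.6 in knockouts. Translation factors were higher in 8 and lower in 11 of 19 (median -0.015), and mitochondrial aminoacyl-tRNA synthetases lower in 11 of 16 (median -0.075). The sign of the median of translation factors was not stable. It ranged from -0.114 without knockout 1 to 0.0023 without knockout 3, a value that the replicate block repeats. It was -0.064 without control 2 and 0.00074 without knockout 2. With median-of-ratios scaling or quantile normalization it was -0.081, and with length correction -0.092. For synthetases the median was -0.155 with quantile normalization, -0.135 with median-of-ratios scaling, -0.121 with length correction and -0.050 without knockout 2. Mtrf1, a release factor, had 5.17 and 4.2 FPKM in controls, against 3.38, 3.8 and 3.72 in knockouts. Guf1, a ribosome-bound GTPase, had 5.30 ± 0.23 and 4.44 ± 0.29 FPKM in controls and knockouts (SD, n = 2 and n = 3).

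Transcription factors and coactivators of mitochondrial genes had log2 fold changes above 0 in 11 of 15, with a median of 0.095. With quantile normalization that was 7 of 15, with a median of -0.0016. The median was 0.038 with median-of-ratios scaling, 0.033 with length correction, 0.020 without control 1, 0.061 without knockout 3 and 0.151 without knockout 2. Esrra, a nuclear receptor, had 20.7 and 21.9 FPKM in controls, against 25.6, 25.9 and 23.6 in knockouts. Ppargc1b, a coactivator of Esrra, had 1.11 and 1.01 FPKM in controls, against 1.91, 1.32 and 1.99 in knockouts. Knockouts lay above both controls for these 2 regulators, which were named for having the smallest p in the list. In the list of 15, groups did not overlap for 5 higher and 1 lower genes, against 18.9% and 6.38% of all tested genes. In each of these lists 0 genes passed the adjusted test, and the limma adjusted p of Esrra was 0.711 and of Ppargc1b 0.700.

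Nuclear respiratory chain genes and cytosolic ribosomal protein genes, which are expressed at higher levels, showed the lower tilt in more of their genes. Of 75 respiratory chain genes 71 were lower (median -0.108), and of 83 cytosolic ribosomal protein genes 79 (median -0.091), with 0 past the adjusted test in either. Without control 1 the cytosolic median was -0.026 and 52 of 83 genes were lower, and without knockout 2 it was -0.039. It was -0.149 without control 2 and -0.139 without knockout 1. Without knockout 1 the respiratory chain median was -0.163. With median-of-ratios scaling the medians were -0.176 for the respiratory chain and -0.156 for the cytosolic list, which stood at -0.060 with quantile normalization. Knockout 2 held the lowest value of 45 respiratory chain and 62 cytosolic ribosomal genes. In knockout 2 the median deviation was -0.097 and -0.132 for these lists, against -0.090 for the mitoribosomal genes. In knockout 3 it was -0.084 for the respiratory chain and -0.0042 for the mitoribosome. Summed cytosolic ribosomal FPKM divided by summed mitoribosomal FPKM was 9.66 and 9.01 in controls and 9.31, 9.05 and 9.23 in knockouts, and the groups overlapped. The mitochondrial genome transcripts, which the mitoribosome translates, were lower in 9 of 13 (median -0.069). Their median was -0.137 with median-of-ratios scaling and -0.011 with quantile normalization. It was -0.124 without control 1, -0.018 without control 2, -0.105 without knockout 1 and -0.037 without knockout 3. Members have short transcripts, with a median of 1302 bases against 2960 in all tested genes. After correction for transcript length the median log2 fold change was -0.042 for members and 0.0023 for all genes.

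**Figure D5:**
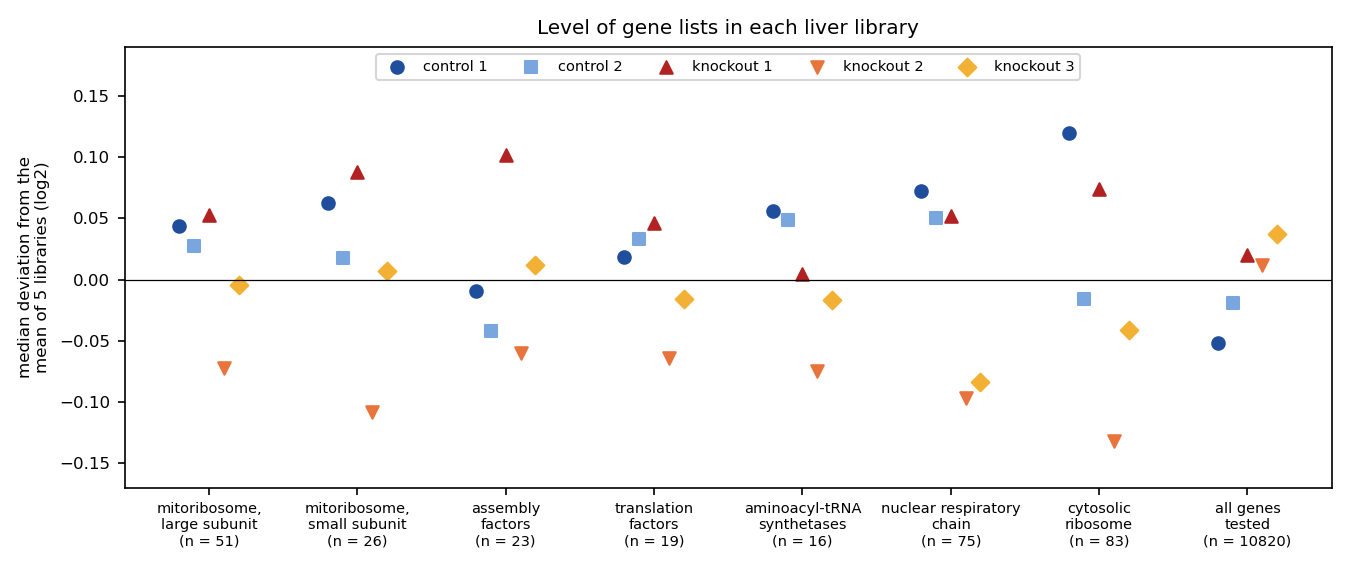
Median deviation (log2) from each gene's mean over the 5 libraries for the large and small subunit of the mitoribosome, 5 other gene lists and all genes tested, 1 symbol per library. Knockout 2 lies lowest in each of the 7 lists shown and not among all genes tested; of lists not shown, control 1 was lowest for regulators (-0.091) and knockout 3 for mitochondrial genome transcripts (-0.048).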

How the data were processed

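Liver RNA of 2 control and 3 knockout libraries was measured by paired-end sequencing, per the labels. The authors deposited FPKM per gene symbol, rounded to 2 decimals, in 2 tables whose 33589 rows held identical values. HISAT2, StringTie, DESeq2 and the mm10 build are named in the submitters' processing notes, without versions or roles, nor is it stated whether counting used strand, so genes overlapping on opposite strands may share reads. Low FPKM of single-exon genes were examined for steps of whole reads, and between 34.7% and 37.5% lay within 0.1 of a whole multiple, against 20.0% by chance, so reads were not recovered and no counting interval is given.

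Genotypes were compared with limma (version 3.58.1, run in R 4.3.3), using its trend option, on log2(FPKM + 1) of 10820 genes with a mean of at least 1 FPKM. The model held genotype alone; p-values are two-sided, with Benjamini-Hochberg adjustment across those genes. An exact permutation test of 2 against 3 libraries cannot go below 0.1. The limma fit was tested on simulated data. Folds understate changes of low genes. Alternatives were pseudocount 0.1, filters of 0.1 and 5 FPKM or none, median-of-ratios scaling, quantile normalization, a loess correction on transcript length, the replicate block and leaving out each library. The replicate block adds a term for the library number and gives the same fold changes as leaving out knockout 3. GENCODE M21 gave positions and lengths by symbol, and RefSeq gave promoters.

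The members and lists were chosen with earlier results of these data known. Named members are the 6 highest and 4 lowest in level, the 8 per direction with the smallest p and 10 preset ones (30 in all), and 2 genes per other list, of which some are not reported here. Symbols of ATP synthase and mitochondrial genome genes were updated by hand. Subunit and origin of members were assigned by hand.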

Additional observations from a re-analysis of the deposited data

How the results depend on the processing

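No member passed an adjusted p of 0.05 under any of the 13 alternatives, the lowest adjusted p of a named member being 0.446. The number of genes that passed was 0, except 5 with the replicate block and 1 without control 1, so that it ranged from 0 to 1 when 1 library was left out. The labels number the libraries without stating what a number shares, and only 2 numbers occur in both groups. Deviations from group means correlated at 0.227 for number 1 and 0.196 for number 2 across genes. With 2 controls, the deviations of control 2 are those of control 1 with the sign turned. The 2 values are therefore tied and are not separate signs of a shared number. With the replicate block the members' median was -0.0304, the same value as without knockout 3, since number 3 occurs only in knockouts. It was -0.104 with median-of-ratios scaling, and ranged from -0.0904 (without knockout 1) to 0.000478 (without knockout 2) when 1 library was left out. Members higher in knockouts were 11 with median-of-ratios scaling, 17 with quantile normalization, and 18 to 40 when 1 library was left out. Of the 30 named members, 18 kept their sign throughout. With median-of-ratios scaling the sign turned for Mrps21 (-0.0311), Mrpl42 (-0.0449), Mrps30 (-0.0323), Mrps25 (-0.0236), Mrps18a (-0.000583) and Mrps36 (-0.0257). With quantile normalization it turned for Mrps30 (-0.0515), Mrps25 (-0.0387) and Mrps36 (-0.0203), with length correction for Mrps30 (-0.0535) and Mrps25 (-0.0721), and with the replicate block for Mrps25 (-0.0315) and Mrps18a (-0.0188). When 1 library was left out, Mrps21 ranged from -0.0194 to 0.078, Mrpl42 from -0.0245 to 0.0762, Mrpl30 from -0.238 to 0.0298, Mrps30 from -0.0852 to 0.141, Mrpl1 from -0.0398 to 0.059, Mrps25 from -0.276 to 0.351, Mrps2 from -0.0309 to 0.417, Mrps35 from -0.0161 to 0.37, Mrps12 from -0.281 to 0.0752, Mrps18a from -0.0978 to 0.229, Mrps18c from -0.211 to 0.0675 and Mrps36 from -0.0417 to 0.0887. The cause of these turns was not tested.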
